A study of Homo sapiens with 4 samples.

Results

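APLNR, the gene of the apelin receptor, and APLN and APELA, the genes of its 2 peptide ligands, were followed through hematopoietic differentiation of human induced pluripotent stem cells. The 3 genes were found by their symbols in a table of 58274 gene identifiers. Each was on a single line of it. Levels are given in FPKM, fragments per kilobase of transcript per 1000000 mapped fragments, a unit that allows for gene length, so that levels can be set side by side between genes.

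The study followed cell fate switches from pluripotency to blood progenitors, and 4 libraries of total RNA were analysed. The starting cells were BC1, an induced pluripotent stem cell line of human origin, sequenced undifferentiated. For differentiation they were exposed to activin A and BMP4 for 2 days and then to VEGF and bFGF, and 3 populations were sorted by surface proteins. Day 2 gave APLNR+ mesoderm cells, day 5 gave CD31+CD34+ cells, called hemogenic endothelial progenitors or HEPs, and day 8 gave CD43+ cells, called hematopoietic progenitor cells or HPCs. All 4 populations came from this 1 line and had 1 library each, so that no difference described here has a replicate check and no test was run.

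The apelin receptor is a G protein-coupled receptor of the cell surface. It is known in early mesoderm, where its protein is used to sort mesoderm cells from differentiating stem cells, and in growing blood vessels. Apelin is secreted by endothelial cells, above all by the tip cells of vessel sprouts, and APELA, also called ELABELA or Toddler, is known as a peptide hormone of undifferentiated stem cells and the early embryo. Both peptides are cut from longer precursors and act through inhibitory G proteins and beta-arrestins.

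The parts of the 2 ligand genes that carry the peptides were short. Their coding sequences are printed because the 2 ligand genes were highest in different populations, and both were read from the GENCODE 29 transcripts for GRCh38, 5′ to 3′ on the strand of the gene. Capitals mark the codons of apelin-13, a common active form of apelin, and those of the mature APELA peptide.
APLN: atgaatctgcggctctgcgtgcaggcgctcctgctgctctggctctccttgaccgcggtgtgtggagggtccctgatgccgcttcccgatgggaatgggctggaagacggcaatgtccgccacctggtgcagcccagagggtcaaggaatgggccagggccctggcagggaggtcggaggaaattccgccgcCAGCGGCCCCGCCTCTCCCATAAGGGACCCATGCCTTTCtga
APELA: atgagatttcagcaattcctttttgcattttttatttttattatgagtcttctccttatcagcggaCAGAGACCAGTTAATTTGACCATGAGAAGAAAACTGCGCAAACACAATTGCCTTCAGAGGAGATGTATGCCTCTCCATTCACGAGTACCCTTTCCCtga

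The APLN precursor has 77 codons before the stop codon, of which the last 13 are those of apelin-13, and the APELA precursor has 54, of which the last 32 are those of the mature peptide. Both peptides are therefore read up to the stop codon. The coding bases of APLN held 65.4% G and C and those of APELA 39.4%. The coding sequence made up 7.3% of the 3205 bases of the only annotated APLN transcript and 6.34% of the 2602 bases of the APELA transcript used, so most fragments counted for either gene came from outside the peptide's own codons if they were spread evenly.

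The 3 genes lie on different chromosomes. APLNR is at chr11:57233577-57237314 on the minus strand and has 3 annotated transcripts, of which 2 are protein-coding. APLN is at chrX:129645259-129654937 on the minus strand, with its coding bases in 2 exons. APELA is at chr4:164877004-164898965 on the plus strand, with 5 annotated transcripts, of which 2 are protein-coding and the printed one has 2 coding exons.

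The depth recovered from the values was between 19600000 and 23600000 mapped fragments per library. Of the genes of the sorting markers, APLNR and CD34 were highest in the library sorted for them and SPN, the gene of CD43, in CD43+, while PECAM1, the gene of CD31, had 93.1 FPKM in the library sorted for it and 126 FPKM in CD43+. The pan-leukocyte marker PTPRC was at no more than 0.0349 FPKM in any library, CD43+ included. The pluripotency, mesoderm, endothelial and hematopoietic lists were each highest in the library of that label. The summed level of 12 pluripotency genes was highest in BC1 at 3981 FPKM, that of 16 mesoderm genes in APLNR+ at 2266 FPKM, that of 16 endothelial genes in CD31+CD34+ at 2136 FPKM and that of 12 hematopoietic genes in CD43+ at 2265 FPKM. Such sums lean on their highest genes, such as POU5F1 at 1997 FPKM in BC1 and ITGA2B at 982 FPKM in CD43+. The endoderm list summed to 3179 FPKM in APLNR+, above the mesoderm list, with CER1 alone at 2991 FPKM.

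APELA, APLNR and APLN reached their highest levels one after the other, each in a different population. APELA was at 22.7 FPKM in BC1 and near 0 in the 3 sorted populations. APLNR went from below 1 FPKM to the 83rd highest gene of the APLNR+ library and then fell in steps. APLN was above 1 FPKM in CD31+CD34+ alone.

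**Figure D1:**
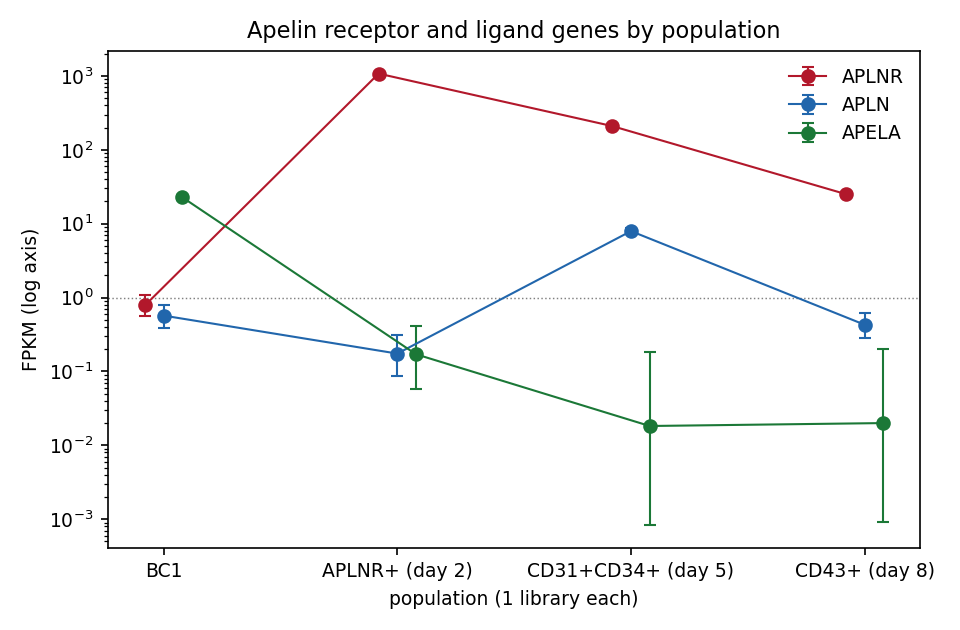
FPKM of APLNR, APLN and APELA (log axis) in the 4 populations in order of differentiation, 1 library each, with bars for the exact Poisson 95% interval from the fragments behind each value and a dotted line at 1 FPKM. APELA is highest in BC1 at 22.7 FPKM, APLNR in APLNR+ at 1073 FPKM and APLN in CD31+CD34+ at 7.92 FPKM.

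In BC1 the receptor gene APLNR had a level of 0.782 FPKM, with a 95% interval from counting of 0.56 to 1.086. The sorted APLNR+ cells had 1073 FPKM of it (1064 to 1082), the CD31+CD34+ cells 209 FPKM (205 to 213) and the CD43+ cells 25.05 FPKM (23.7 to 26.4). The intervals of the 4 libraries did not overlap. These and all other intervals take in counting error alone, so a second culture or sort could fall outside them. The level in APLNR+ cells follows from the sort on the receptor's own protein, and it is given as a check of the label.

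The later populations were not sorted on the receptor. APLNR was 5.135-fold lower in CD31+CD34+ than in APLNR+ (95% interval from counting, 5.035 to 5.239), a difference that the sort of the APLNR+ cells itself helps to set. From CD31+CD34+ to CD43+, neither of them sorted on APLNR, it fell 8.34-fold (7.88 to 8.84). APLNR was still a well expressed gene after both falls. In CD31+CD34+ cells APLNR was the 398th highest gene, above 97.2% of the genes with at least 1 FPKM, and in CD43+ cells it was still above 72.0% of them. APLNR was 32.02-fold higher in CD43+ than in BC1 (22.9 to 44.9), so the CD43+ HPCs had not returned to the level of the undifferentiated line.

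The ligand gene APELA had a level of 22.7 FPKM in BC1, with a 95% interval from counting of 20.9 to 24.6. The APLNR+ cells had 0.170 FPKM of it (0.0576 to 0.414), the CD31+CD34+ cells 0.0182 FPKM (0.000827 to 0.182) and the CD43+ cells 0.01997 FPKM (0.000907 to 0.1996). BC1 stood apart, and the intervals of the 3 sorted populations overlapped. In BC1 the value rested on about 590 fragments and in APLNR+ on about 5, or 1048 and 9 if its longest transcript was used. The intervals given here use the median length over protein-coding transcripts and would change with the length. The values in CD31+CD34+ and CD43+ came to 1 fragment each, below the 3 fragments that a count of 0 allows, so that APELA was not detectable there at this depth. Its level was 133-fold lower in APLNR+ than in BC1 (54.6 to 396). In BC1, APELA was above 72.1% of the genes with at least 1 FPKM.

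The ligand gene APLN had a level of 0.569 FPKM in BC1, with a 95% interval from counting of 0.392 to 0.800. In the APLNR+ cells it was at 0.174 FPKM (0.0869 to 0.312), in the CD31+CD34+ cells at 7.92 FPKM (7.27 to 8.61) and in the CD43+ cells at 0.428 FPKM (0.282 to 0.623). CD31+CD34+ was far above the other 3 libraries, which all lay below 1 FPKM. Among these, BC1 and CD43+ did not differ beyond counting error, the level in BC1 being 1.33-fold that in CD43+ (0.775 to 2.30). The lowest was APLNR+, where about 11 fragments were behind the value and the level was 3.27-fold lower than in BC1 (1.61 to 7.17). APLN rose 45.5-fold from APLNR+ to CD31+CD34+ (25.2 to 91.6) and fell 18.5-fold from there to CD43+ (12.6 to 28.3). Even at its highest, APLN was a gene of moderate level, above 41.4% of the genes with at least 1 FPKM in CD31+CD34+.

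Changes were then read against all genes on the scale of log2(FPKM + 1), on which changes of low genes come out too small, and a gene is said to have risen or fallen where it moved by at least 2 on this scale. All 3 genes were among the 17137 that reached 1 FPKM in some library, APLN and APELA through 1 library each, which had to differ from the others for that reason. From BC1 to APLNR+, APLNR rose by 9.24, where 2.68% of all genes rose, a change that the sort on its protein sets in part. Where other genes are set beside this rise below, the same limit holds. APELA fell by 4.34, where 2.29% fell. APLN was lower in APLNR+ by 0.42 on this scale and did not reach the threshold. At the same step 27 genes fell by more than APELA.

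At the next steps the receptor gene and the remaining ligand gene first moved in opposite directions and then together. From APLNR+ to CD31+CD34+, APLN rose by 2.93, where 4.08% of all genes rose, and APLNR fell by 2.35 from the level set by the sort, where 3.15% fell. On the scale of log2(FPKM + 0.1) the rise of APLN was 4.87. APELA went from 0.170 to 0.0182 FPKM. With the median length over protein-coding transcripts this was about 5 and 1 fragments, a difference within counting error. With its longest transcript it was about 9 and 1, and no interval was computed for that length, so whether APELA fell further here is not settled. From CD31+CD34+ to CD43+, APLNR fell by 3.01 and APLN by 2.64, where 4.32% of all genes fell and 2.28% rose. Over the whole course from BC1 to CD43+, APLNR rose by 3.87, where 5.37% of all genes rose, APELA fell by 4.54, where 6.77% fell, and the difference of APLN was -0.14. Consecutive steps share a library, so these changes are not independent of each other.

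**Figure D2:**
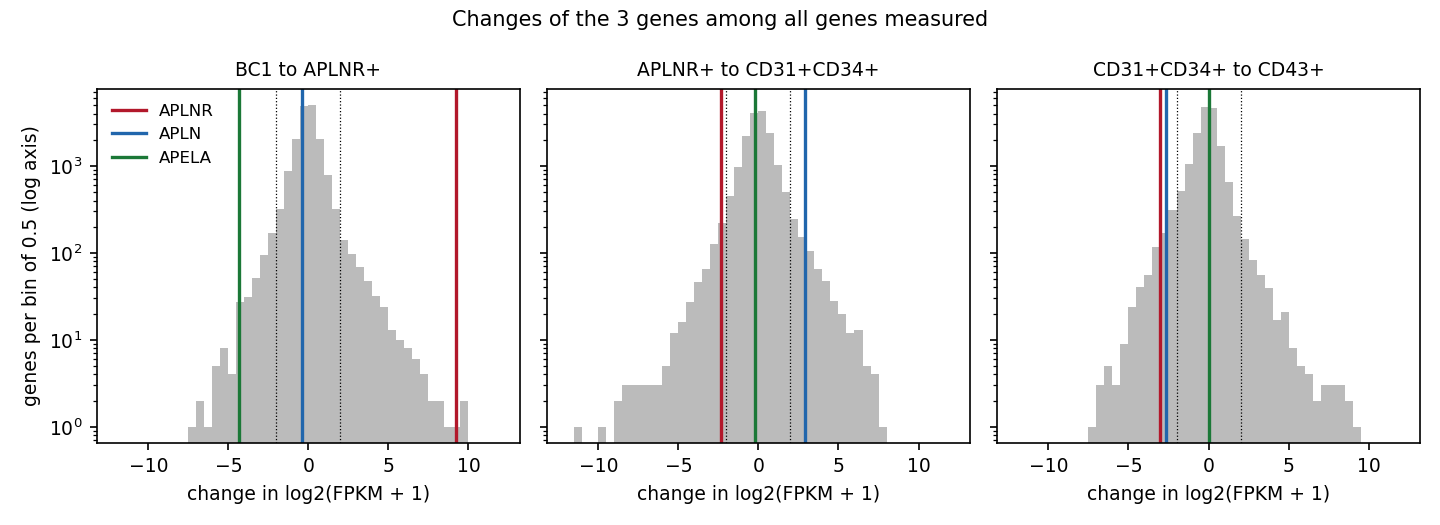
Distribution of the change in log2(FPKM + 1) over the 17137 genes measured at each of the 3 steps (grey bars, number of genes per bin of 0.5 on a log axis), with coloured lines for the 3 genes and dotted lines at changes of -2 and 2. APLNR lies at 9.24 in the first panel, in a library sorted on its protein, and APLN at 2.93 in the second, on the opposite side from APLNR at -2.35.

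How far each gene was restricted to 1 population was expressed as the share of its summed FPKM over the 4 libraries that came from its highest library. The share was 99.1% for APELA in BC1, 87.1% for APLN in CD31+CD34+ and 82.0% for APLNR in APLNR+. A high share is built in for APELA and APLN, which were kept through that library alone, and for APLNR, whose highest library was sorted on its protein, so these shares are descriptions.

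The balance of the ligands turned over with the populations. In BC1, APELA made up 97.6% of the summed ligand FPKM of 23.3. In APLNR+ the sum was 0.345 FPKM, with APELA and APLN at nearly equal and very low levels. In CD31+CD34+ the sum was 7.94 FPKM and in CD43+ it was 0.448 FPKM, and in both APELA was below the floor of 3 fragments, which stood for 0.098 and 0.1075 FPKM of it, so no share is given.

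Receptor and ligand transcripts were abundant in different libraries. In BC1 the ligands together were 29.8-fold above the receptor. In APLNR+ the receptor was 3114-fold above the ligands, the extreme of the 4 libraries, with about 5 fragments behind the value of APELA and 11 behind that of APLN. This library was sorted on the receptor's own protein, which helps to set that excess. The excess of receptor was 26.3-fold in CD31+CD34+ and 55.9-fold in CD43+. CD31+CD34+ was the only library in which the receptor and 1 of its ligands were both above 1 FPKM. In bulk libraries fewer cells that express a gene and less RNA of it in each cell cannot be told apart, nor can it be told whether receptor and ligand came from the same cells.

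On a log scale the profile closest to that of APLNR was that of GATA6. The APLNR profile includes the library sorted on its own protein, so the ranking is a description. Likeness was measured over the 4 libraries as the root mean squared difference between log2(FPKM + 1) profiles, each gene minus its own mean, among 9429 genes that reached at least 10 FPKM. GATA6, a transcription factor of mesoderm and endoderm, was at 0.0434, 363, 57.8 and 12.3 FPKM in BC1, APLNR+, CD31+CD34+ and CD43+, a difference of 0.431 from APLNR. Next came BMPER, an extracellular regulator of BMP signals, at 1.04, GATA6-AS1 at 1.2, the transcription factor GATA4 at 1.25 and the homeobox factor IRX3 at 1.28. GATA6-AS1 is annotated as antisense, and without knowledge of strand its fragments and those of GATA6 cannot be told apart. With profiles in percent of each gene's highest FPKM, MSX2 came first at a difference of 1.52, before GATA6 at 1.85, and 1 of the 5 genes was kept.

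For APLN the closest profiles were those of AKR1C3, an enzyme of steroid metabolism, at a difference of 0.0743, the collagen gene COL1A1 at 0.106, the transcription factor CASZ1 at 0.117, RGL1, an exchange factor for Ral proteins, at 0.119 and TPD52L1 at 0.154. AKR1C3 was at 4.48, 2.63, 30.1 and 3.65 FPKM in the 4 libraries in order, values that are uncertain because the gene has near-identical paralogs. These names depend on the scale. With profiles in percent of each gene's highest FPKM, 0 of the 5 were kept and DYSF, TFPI2, PTPRE, KANK3 and SEMA3G stood nearest to APLN. With a pseudocount of 0.1, 0 of the 5 were kept as well.

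For APELA the closest profiles belonged to genes at or near 0 in all sorted populations. They were AC104257.1, a long intergenic RNA, at a difference of 0.0436, IDO1, an enzyme of tryptophan breakdown, at 0.078, the pseudogenes AL357075.2 at 0.0821 and AP1B1P1 at 0.0938, and the long intergenic RNA LNCPRESS2 at 0.101. IDO1 was at 23.2 FPKM in BC1 and 0.0322 FPKM in APLNR+, and was listed at 0 in the other 2 libraries. With profiles in percent of the highest FPKM, 0 of these 5 were kept.

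**Figure D3:**
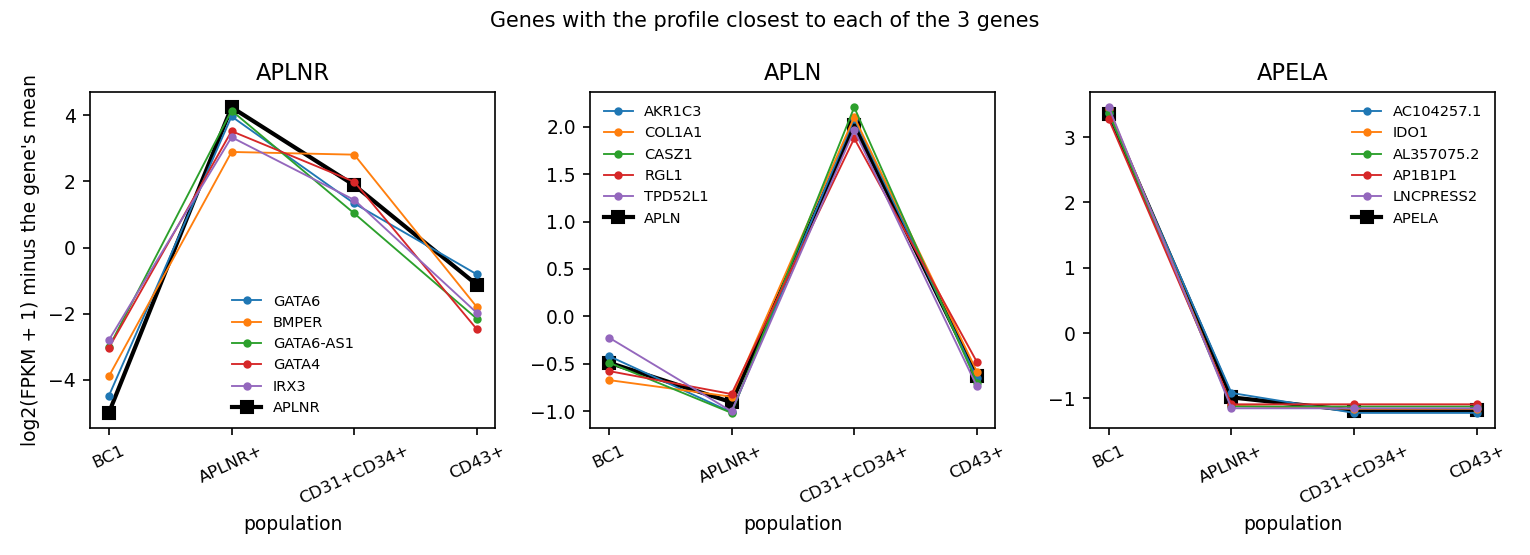
Profiles of log2(FPKM + 1) minus each gene's own mean over the 4 populations, 1 library each, for APLNR, APLN and APELA (black squares) and the 5 genes closest to each (coloured points). GATA6 stays nearest to APLNR with a root mean squared difference of 0.431, and the lines around APLN and APELA nearly coincide with theirs.

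The genes beside the 3 loci were compared at the same steps. Within 250 kb of APLNR lay 20 other genes, of which 9 had at least 1 FPKM in a library. The nearest of these was LRRC55, 41.9 kb away, at 0.503, 1.339, 0.6275 and 0 FPKM in the 4 libraries in order. From BC1 to APLNR+, where APLNR rose by 9.24, none of the 9 rose or fell by 2, and the same held at the next step. Of all genes, 2.68% rose and 2.29% fell at the first step and 4.08% and 3.15% at the second, so that with so few neighbours such counts of 0 do not set them apart from other genes. The 1 that moved by 2 at any step was PRG2, the gene of an eosinophil granule protein. It was at no more than 6.98e-05 FPKM in the first 3 libraries and at 8.86 FPKM in CD43+. Its locus overlaps that of AP000781.2, so its values depend on how shared fragments were divided. Over all genes 2.28% rose and 4.32% fell at the last step. The others were TNKS1BP1, SSRP1, P2RX3, AP000781.2, SLC43A3, RTN4RL2 and SLC43A1.

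Near APLN, 12 genes lay within 250 kb and 5 of them had at least 1 FPKM: OCRL at 52.7 kb, XPNPEP2, SMARCA1, SASH3 and ZDHHC9. None of the 5 moved by 2 at any step, and the largest change was 1.54. OCRL, the gene of a lipid phosphatase, went from 3.91 to 8.51 FPKM at the second step, where APLN went from 0.174 to 7.92 FPKM. Near APELA, 23 genes lay within 250 kb and 3 had at least 1 FPKM, TRIM61 at 55.5 kb, AC106872.5 and TMEM192, with a largest change of 0.84 at any step. For 5 and 3 genes, too, counts of 0 are near the shares over all genes. TRIM61 was at 3.51 FPKM in BC1 and 2.59 FPKM in APLNR+, where APELA went from 22.7 to 0.170 FPKM. No annotated neighbour overlapped any of the 3 genes.

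**Figure D4:**
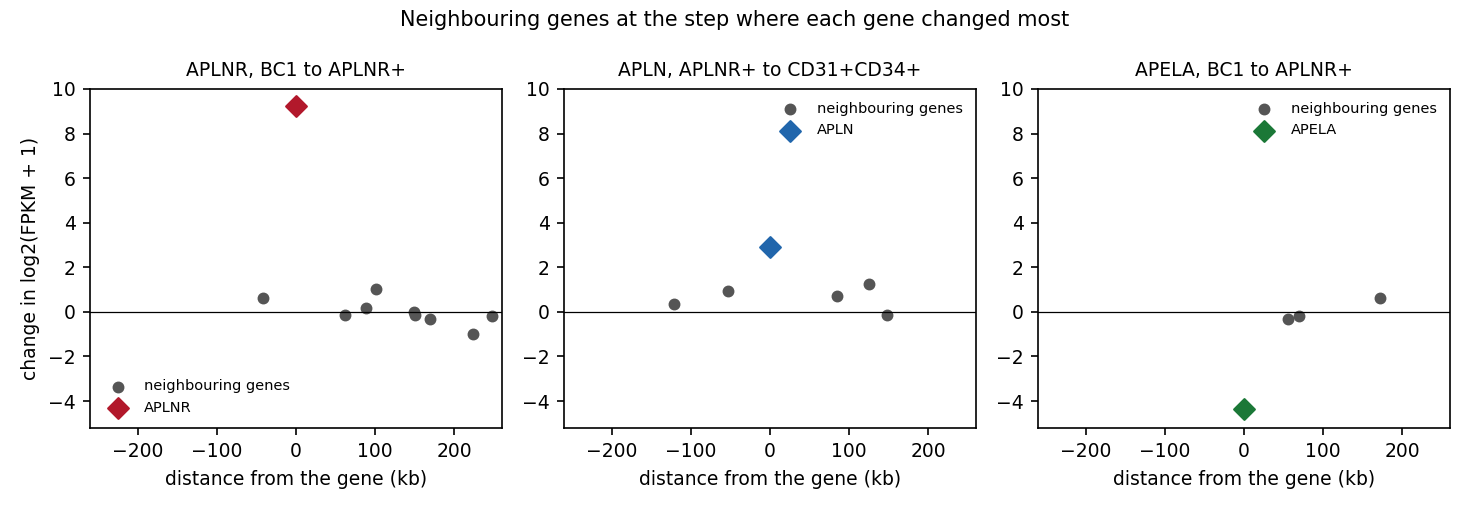
Change in log2(FPKM + 1) of each gene and of its neighbours with at least 1 FPKM (grey points) against the distance from the gene in kb, at the step where that gene moved most. APLNR is at 9.24, APLN at 2.93 and APELA at -4.34, and the neighbours moved by less than 2, as did most genes of the table, of which 2.68% rose and 2.29% fell at the first step and 4.08% and 3.15% at the second.

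Genes that act with the peptides and the receptor were examined as 4 lists. Among enzymes that process or clear the peptides, FURIN and PCSK7 were at no less than 15.1 FPKM in any population. Of 7 listed, 6 had at least 1 FPKM in a library, 0 rose or fell at the first 2 steps and 1 rose at the last, with a median change of 0.93, -0.61 and -0.5 at the 3 steps. Over all genes, 2.68%, 4.08% and 2.28% rose and 2.29%, 3.15% and 4.32% fell at these steps. A count of 0 or 1 among 6 genes cannot be set apart from these shares. FURIN, a proprotein convertase, was at 18.65, 48.7, 183.5 and 79.6 FPKM in the 4 libraries in order, highest in CD31+CD34+ like APLN. PCSK6, another convertase, rose by 3.92 at the last step, from 2.73 to 55.3 FPKM. PCSK7 reached 35.2 FPKM in APLNR+.

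All 14 listed G proteins, receptor kinases and arrestins had at least 1 FPKM in a library, and at the 3 steps 1, 0 and 0 of them rose and 0, 0 and 2 fell. Over all genes 2.68%, 4.08% and 2.28% rose and 2.29%, 3.15% and 4.32% fell. Counts this small among 14 genes cannot be set apart from these shares. Their median change was 0.22, 0.34 and -0.32, beside 0, 0.01 and -0.08 over all genes. GNAI1, an inhibitory G protein subunit of the kind the receptor couples to, was at 14.5, 69.2, 125.3 and 29.3 FPKM in order. It rose by 2.18 at the first step and fell by 2.06 at the last, and with the libraries scaled by a median of ratios 1 gene of the list fell and 1 rose at the last step, since GNAI1 no longer reached the threshold and GNAQ did. GNAI2, of the same family, was highest of the list at 340.7 FPKM in CD31+CD34+ and at no less than 118 FPKM in any library. The arrestin gene ARRB2 reached 186 FPKM in CD43+ and the G protein gene GNAQ 129 FPKM in CD43+. The receptor kinase gene GRK5 fell by 2.26 at the last step, from 11.7 to 1.66 FPKM.

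Of the effectors described downstream of the receptor, 5 rose at the step at which APLN rose. Of the 16 listed, all measured, 0 rose or fell at the first step, 5 rose and 0 fell at the second, and 2 rose and 3 fell at the last. Over all genes 4.08% rose and 3.15% fell at the second step, and 2.28% and 4.32% at the last. The median change was 0.5, 0.72 and -0.28. The endothelial nitric oxide synthase gene NOS3 rose by 3.37 at the second step, from 8.16 to 93.7 FPKM, and fell by 4.61 at the last, to 2.87 FPKM. KLF2, a transcription factor of endothelial cells, was at 0.202, 0.796, 51.4 and 8.52 FPKM in order. The gap junction gene GJA5 was at 3.501, 0.590, 51.2 and 9.93 FPKM. These 3 genes, like APLN, were highest in CD31+CD34+. The other 2 of the 5 were highest in CD43+. MEF2C, a transcription factor, was at 0.4815, 0.975, 29.2 and 158.8 FPKM in order, and the gap junction gene GJA4 at 6.66, 1.30, 49.4 and 151 FPKM. KLF4 rose by 2.15 at the last step, to 8.72 FPKM. The kinase gene AKT1 had the highest level of the list, 167 FPKM in APLNR+. KLF2, NOS3 and the gap junction genes are also general endothelial genes.

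Of 10 receptors related to APLNR or described as its partners, 1 reached 1 FPKM. ACKR3, an atypical chemokine receptor, was at 0.642, 38.5, 1.26 and 0.530 FPKM in order. It rose by 4.59 at the step at which APLNR rose and fell by 4.13 at the next, at which APLNR fell by 2.35. The level of APLNR between these steps is that of the library sorted on its protein. The angiotensin receptor gene AGTR1 was at no more than 0.257 FPKM and CXCR4 at no more than 0.8205 FPKM in any library. AGTR2 and GPR15 were listed at 0 in all 4.

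**Figure D5:**
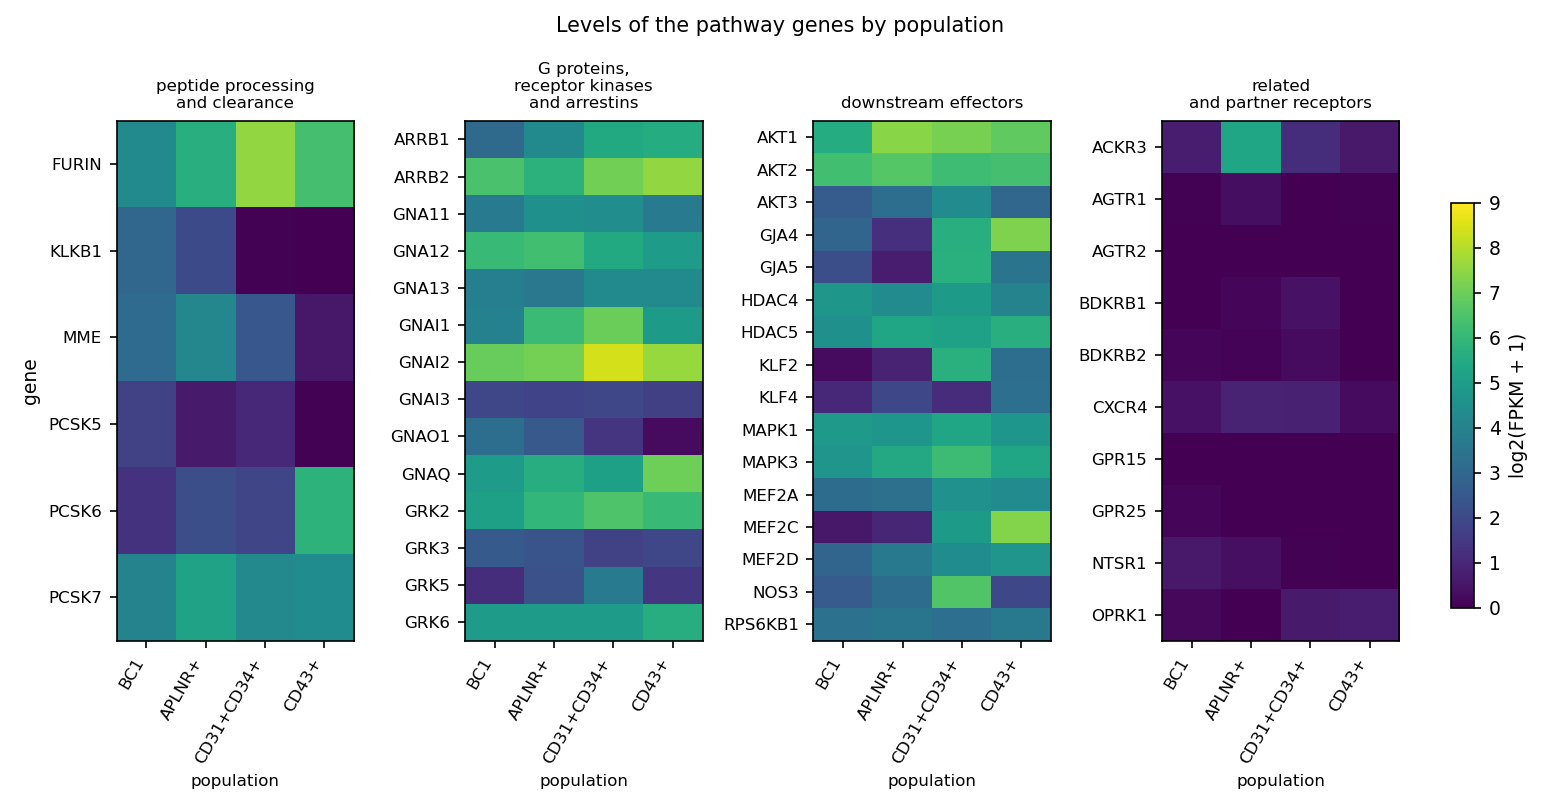
Levels of the genes of 4 lists as colour, in log2(FPKM + 1), in the 4 populations, 1 library each: peptide processing and clearance, G proteins with receptor kinases and arrestins, downstream effectors, and related or partner receptors. The first 3 panels hold the genes with at least 1 FPKM in a library and the last all genes listed. GNAI2 is bright in every population, KLF2, NOS3 and GJA5 are brightest in CD31+CD34+, and ACKR3 stands alone among the related receptors at 38.5 FPKM in APLNR+.

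The lists of cell type genes were read beside the 3 genes. Over all genes, 2.68%, 4.08% and 2.28% rose and 2.29%, 3.15% and 4.32% fell at the 3 steps. These shares stand beside the counts of every cell type list and of the low oxygen list. APLNR rose at the first step, in the library sorted on its protein. There 15 of 16 mesoderm genes rose and 0 fell, with a median change of 6. At the second, where APLNR fell, 11 of them fell and 1, KDR, the gene of a VEGF receptor, rose. KDR is also on the endothelial list. At the last, 8 fell. MIXL1, a homeobox factor of the primitive streak, went from 474 to 0.982 FPKM at the second step, a 483-fold difference (335.5 to 753), where APLNR was 5.135-fold lower and GATA6 6.27-fold (6.06 to 6.50).

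The endothelial list moved at the steps at which APLN moved. Of its 16 genes, 14 rose and 0 fell at the second step, with a median change of 5.09, and 0 rose and 9 fell at the last, with a median of -2.29. CDH5, the gene of VE-cadherin, rose by 7.08 at the second step, and SOX7, a transcription factor, fell by 5.48 at the last. The genes known, like apelin, from endothelial tip cells did not move as a group. Of 8 measured of 10 listed, 2 rose and 1 fell at each of the first 2 steps, and 1 rose and 2 fell at the last. Their median change was -0.09, 0.18 and -0.81, beside 0, 0.01 and -0.08 over all genes. The Notch ligand gene DLL4 was at 0.1305, 0.420, 17.97 and 1.77 FPKM in order, highest where APLN was. ESM1, a common tip cell marker, was at no more than 0.733 FPKM in any library, and ANGPT2 was highest in APLNR+ at 5.63 FPKM. Hematopoietic genes rose with APLN at the second step and moved the other way at the last, where APLNR and APLN fell. Of 11 measured of 12 listed, 9 rose and 0 fell at the second step, with a median change of 3.57. At the last step 6 rose and 0 fell, NFE2, a transcription factor of red cells and platelets, from 12.6 to 235 FPKM.

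Some markers of other cells also moved with APLN. Of 9 mural and fibroblast genes, 7 were measured. At the second step 3 of these rose and 0 fell, and at the last 0 rose and 4 fell. Over all genes 4.08% rose and 3.15% fell at the second step, and 2.28% and 4.32% at the last. Their summed level was 228 FPKM in BC1 and again in APLNR+, reached 915 FPKM in CD31+CD34+ and was 84.6 FPKM in CD43+. RGS5, a pericyte gene listed under more than 1 identifier, of which the higher was used, reached 393 FPKM in CD31+CD34+, and COL1A1 reached 184 FPKM. COL1A1 was among the 5 genes closest to APLN on the scale of log2(FPKM + 1). With a pseudocount of 0.1 or in percent of the highest FPKM it was not. ACTA2 rose by 3.95 at the second step. TAGLN changed by -0.64, PDGFRB by 0.24 and CSPG4 by -0.25 there, below the threshold. Of the defining fibroblast genes, DCN was listed at 0 in CD31+CD34+ and CD43+ and LUM was at 0.187 FPKM in CD31+CD34+. The part of such cells in the level of APLN was not tested.

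Pluripotency genes fell with APELA, but not all of them. At the first step 0 of 12 rose and 7 fell, with a median change of -2.33. SOX2 fell by 6.61 at this step, from 172 to 0.766 FPKM, and APELA fell by 4.34. POU5F1 stayed at 573 FPKM in APLNR+ after 1997 FPKM in BC1, and TDGF1, the gene of the Nodal coreceptor, was at 271 FPKM in BC1 and 260 FPKM in APLNR+. Of 12 listed genes of the endoderm, a layer in which APELA is also known to be made, 10 were measured. At the step at which APELA fell, 4 of these rose and 0 fell, beside 2.68% and 2.29% of all genes. The largest rise was that of CER1, a secreted Nodal and BMP inhibitor, from 2.50 to 2991 FPKM. GSC, SOX17 and HHEX also rose. FOXA2 went from 0.522 to 0.588 FPKM and FOXA1 from 0.0985 to 0.151 FPKM, and LEFTY1 changed by -1.85.

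Genes of the response to low oxygen, which is known to induce APLN, showed no common direction at the step at which APLN rose. Of 12 measured of 13 listed, 2 rose and 1 fell at the second step, with a median change of -0.17. Over all genes 4.08% rose and 3.15% fell at that step. NDRG1 rose by 2.72 and EPAS1, the gene of an oxygen-regulated factor, by 2.47, while EGLN3 fell by 3.4. At the last step, where APLN fell by 2.64, 0 of the 12 rose or fell, or 1 rose with the libraries scaled by a median of ratios, and their median change was 1.22. The part of low oxygen in the level of APLN was not tested.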

How the data were processed

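Total RNA was made into Illumina TruSeq libraries by the authors, 1 for each of the 4 populations. The authors deposited gene-level FPKM values. The submitters' processing notes name BWA, Bowtie, RSEM and the build hg19, with no role or version, whereas 55647 of the 58274 identifiers matched GENCODE 29 in version and 55645 of these had the GRCh38 start and end of that release. Positions are therefore those of GRCh38 and count from 1. Use of strand is not given in the sources used here.

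Lines of one gene identifier were summed. A gene was kept if any library reached 1 FPKM, which left 17137, and changes are differences of log2(FPKM + 1) with a threshold of 2. Mapped fragments were fitted from the steps between low FPKM values, of which from 92.4% to 94.6% fell within 0.1 of a whole number of fragments. Fragments per gene were estimated with the median length over protein-coding transcripts. Levels carry exact Poisson and folds exact Clopper-Pearson 95% intervals, and 3 fragments are the floor. The procedure was tested on simulated data. Python 3.11.15, numpy 2.4.6, pandas 2.3.3, scipy 1.17.1 and matplotlib 3.10.9 were used.

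Samples were grouped by the labels, and columns were matched to them by name. The 3 genes and all gene lists were chosen with earlier results of these data known. Besides the 3 genes, the text names the 5 genes with the likest profile to each, neighbours within 250 kb that were kept, pathway genes that moved by at least 2 or are the 3 highest of a list, the genes of other lists that rose or fell most, and the sorting markers, with a few others given as values. No alternative was added after the data were seen.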

Additional observations from a re-analysis of the deposited data

How the results depend on the processing

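With 1 library per population no library could be left out, and no spread between replicates limits any value. No paired analysis was possible because each population had 1 library. No change of APLNR, APLN or APELA reversed its direction or crossed the threshold of 2 under another pseudocount or scaling. Each gene was on 1 line, so that the treatment of lines of one identifier could not change it. With a pseudocount of 0.1, APLNR changed by 10.25 at the first step, APLN by -1.29, 4.87 and -3.93 at the 3 steps and APELA by -6.40 and -1.19 at the first 2. With each library rescaled to a total of 1000000, APLNR changed by 9.59 at the first step and -3.15 at the last, APLN by 3.45 and -3.09 at the second and the last, and APELA by -4.86 and -0.31 at the first 2. With median-of-ratios factors, APLNR changed by -2.39 at the second step and -2.91 at the last. Rescaling to a total of 1000000 moved the median change of all genes by -0.11 at the last step, and the shifts at the other steps and with the other scaling were between -0.02 and 0.08.

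Counts moved with the threshold and the pseudocount. With a change of at least 1, 1568 genes rose and 1597 fell at the first step, 2229 and 1957 at the second, and 1307 and 2321 at the last, and in the 4 pathway lists 7 and 3, 12 and 4, and 5 and 9. With a pseudocount of 0.1 and a change of at least 2, 1012 rose and 1098 fell, then 1453 and 1345, then 807 and 1695, and 2, 2 and 8 pathway genes fell. A filter of 5 FPKM kept all 6 counts of genes within 1.5 times, and leaving the filter out could not add a gene, since a gene below 1 FPKM throughout cannot move by 2.

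Of the 5 genes closest in profile, percent of the highest FPKM kept 1 for APLNR, 0 for APLN and 0 for APELA, a pseudocount of 0.1 kept 3, 0 and 1, and protein-coding genes alone kept 1 for APELA. Depth limits APELA after BC1 and APLN in APLNR+. Using the longest transcript moved 4 of the 12 fragment estimates beyond their 95% counting interval, that of APELA in BC1 from 590 to 1048.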
